A study of Mus musculus with 9 samples.

Results

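Mouse primary hepatic stellate cells that received exosomes of KPC cells were compared with the same kind of cells that received exosomes of normal pancreatic duct cells. C57BL/6 mouse livers gave the stellate cells, which were cultured in medium with exosome-depleted serum. KPC is a mouse pancreatic adenocarcinoma cell line, and the control exosomes came from primary epithelial cells of the mouse pancreatic duct. The labels give no dose of exosomes, no length of exposure and no age of the mice, and whether libraries are of separate cultures or mice is not said in them, so each p-value measures only the spread between these samples. Stellate cells without exosomes were not analysed here. Each group held 3 RNA-seq libraries, numbered 1 to 3. The 9 libraries of the series also include 3 with exosomes of Panc02, another mouse pancreatic adenocarcinoma line. These 3 entered the estimate of spread, the filter on low values, the adjustment for GC content and the correlations between replicate numbers. They did not enter the KPC minus control differences of the values as deposited. All 11051 genes of the deposited table were considered, and 10368 of them with at least 1 FPKM (fragments per kilobase of transcript, scaled to the mapped fragments of a library) in at least 3 of the 9 libraries were tested. Differences are KPC minus control on the log2(FPKM + 1) scale, which understates the change of genes near or below 1 FPKM. The 3 values of a group are listed in the order of replicates 1, 2 and 3.

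Hepatic stellate cells are pericytes of the liver sinusoid that store vitamin A when quiescent. When activated they become myofibroblasts, which make collagen, build contractile fibres and answer to TGF-beta, a cytokine that signals through Smad proteins, and to mechanical tension, read by Yap and Tead. Exosomes are small vesicles that cells shed and that carry protein and RNA to other cells. Exosomes of pancreatic tumour cells have been described as conditioning the liver before metastasis.

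The replicate 1 libraries stood apart in both groups, which bears on all results. Mitochondrially encoded genes took 33.6%, 13.6% and 11.2% of summed FPKM in the KPC libraries, against 26.4%, 15.9% and 14.9% in the control libraries. The means were 19.4% ± 12.3 with KPC exosomes and 19.1% ± 6.35 with control exosomes (SD, n = 3 each, exact permutation test, two-sided p = 1, where the smallest possible is 0.10). In replicate 1 the share was higher in the KPC library, and in replicates 2 and 3 it was lower in the KPC libraries. Between 9895 and 10270 genes reached 1 FPKM per library in these groups, and the depth behind the values is unknown because FPKM without read counts gives none. Of 15 stellate cell and myofibroblast markers 11 were in the table, with sums of 1641 to 2282 FPKM in KPC libraries and 1478 to 1779 FPKM in control libraries, while the defining markers Des, Lrat, Reln and Hand2 were not in it. Of 12 macrophage markers 3 were in the table, with sums of 4.09 to 5.18 FPKM in KPC libraries and 4.02 to 6.10 FPKM in control libraries, and of 10 endothelial markers 2 were in it, at sums of at most 2.32 FPKM in KPC libraries and 2.07 FPKM in control libraries. No hepatocyte and no lymphocyte marker of the lists used was in the table. Of 13 markers of duct or tumour epithelium 6 were in the table, with sums of 23.3 to 25.7 FPKM in KPC libraries and 21.5 to 24.1 FPKM in control libraries, most of it from Sox9, while Epcam, Krt19 and Krt20 stayed below 1 FPKM in all 6 libraries. No marker of any list passed in the fit without a block for the replicate number.

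Few genes passed between stellate cells with KPC and with control exosomes. Of 10368 genes, 13 passed as higher (0.125%) and 21 as lower (0.203%) at a Benjamini-Hochberg adjusted p under 0.05 by limma. In simulated data this fit found 9.5% of changes of log2 0.5 and 58.4% of changes of log2 1. A gene that did not pass is therefore not shown to be unchanged. By size of the difference, the higher genes were led by Ctsw, Adam12, Tnnt2 and Pmepa1 and held the matrix and growth factor genes Ctgf, Has2, Vegfa and Il11. The lower genes were led in the same way by Kng2, Dio2, Aldh3a1 and Aldh1a7 and held complement, glutathione transferase and aldehyde dehydrogenase genes. With the replicate number as a block, which removes what libraries of the same number share, 61 genes passed as higher (0.588%) and 113 as lower (1.09%), the 34 genes above among them. These counts rest on a spread shared with the Panc02 libraries. With the KPC and control libraries alone no gene passed, with or without the block, while 191 higher and 392 lower genes had an unadjusted p under 0.05 in limma without the block. Leaving out any 1 control library also left no gene past the threshold. When KPC replicate 2 was left out 2 higher and 5 lower genes passed, and when KPC replicate 3 was left out 1 and 3. Dropping Panc02 replicate 2 gave 3 and 5, and dropping Panc02 replicate 3 gave 2 and 6. With every library scaled to the same total 2 higher and 4 lower genes passed.

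Across the transcriptome, the difference in replicate 1 and the mean difference in replicates 2 and 3 had the same sign in 49.2% of genes, and their Pearson correlation across genes was 0.071. Replicate 2 and replicate 3 had the same sign in 65.1% of genes, with a correlation of 0.39. Genes are not independent replicates, so these are descriptions. The 34 genes that passed had the same sign in all 3 replicates, against 32.3% of all genes, and their call used all of these libraries. The same held for all 61 higher and 113 lower genes that passed with the block. For a called gene, the same sign in replicate 1 is therefore no separate result. The KPC and control libraries did not overlap in 1187 of all 10368 genes (11.4%). That share stands beside every gene below whose groups are said not to overlap. For the 13 higher genes the median difference was 0.85 in replicate 1 and 1.23 in replicates 2 and 3, and for the 21 lower genes it was -0.80 and -0.93. In each of the 34 the difference in replicate 1 was at least 0.5 times that in replicates 2 and 3.

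Replicates 2 and 3 fitted by themselves, in a model with a separate mean for replicate 1 of each group, gave a list that replicate 1 could be set against, since they share no library. In them 103 genes passed as higher (0.993%) and 83 as lower (0.801%). Of the lower genes 79 (95.2%) were also lower in replicate 1, with a median difference of -0.56 there and -0.69 in replicates 2 and 3. Of the higher genes 75 (72.8%) were also higher in replicate 1, with a median difference of 0.26 over all 103 in replicate 1 and 0.75 in replicates 2 and 3. Both shares lay above the 49.2% of all genes. In replicate 1, however, only 3840 of 10368 genes were above 0, so a matching sign was more common for lower than for higher genes. The 2 shares are therefore not to be compared with each other. Ranked by p in replicates 2 and 3, the first 50 genes had the same sign in replicate 1 in 92%, the next 150 in 77.3%, the next 300 in 66% and the 1000 that follow rank 1000 in 47.3%. The genes of lowest p in replicates 2 and 3 thus mostly had the same sign in replicate 1, and those past rank 1000 did so no more often than all genes.

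**Figure D1:**
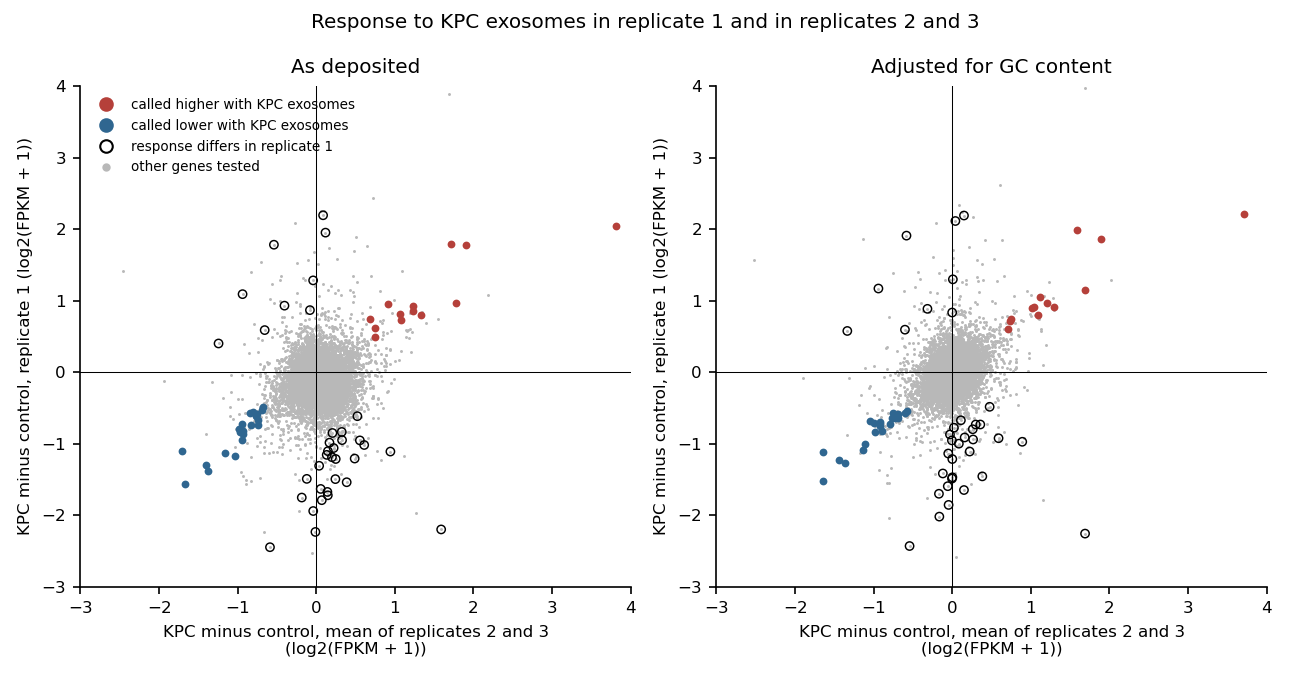
Each point is 1 of 10368 genes, with the KPC minus control difference on the log2(FPKM + 1) scale in replicates 2 and 3 (x axis, mean) and in replicate 1 (y axis), as deposited on the left and after adjustment for GC content on the right. The 34 coloured genes lie at the upper right and lower left of both panels, and 3 genes lie outside the axes.

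The GC content of transcripts moved with the disagreement. In the 1032 genes with the lowest GC content (up to 41.6%) the median difference was 0.087 in replicate 1 and -0.10 in replicates 2 and 3. In the 1031 genes with the highest GC content (from 58.1%) the medians were -0.27 in replicate 1 and 0.22 in replicates 2 and 3. So GC-rich genes were lower with KPC exosomes in replicate 1 and higher in replicates 2 and 3. Each library was then adjusted for a smooth trend with GC content, an alternative chosen after seeing the data. With adjusted values the sign matched in 60.8% of genes and the correlation was 0.24. Of the genes called in replicates 2 and 3 on adjusted values, 90% of 70 higher and 89.6% of 77 lower ones matched in replicate 1. The adjusted values gave 97 calls (0.936%), and 32 of the 34 genes were among them. The exceptions were Creb3l1 (adjusted p = 0.0884) and Tnnt2 (adjusted p = 0.0588). Of the genes called higher in replicates 2 and 3, those with the opposite sign in replicate 1 had a median GC content of 57.2%, against 52.5% in those with the same sign. What made libraries differ in GC content was not tested.

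**Figure D2:**
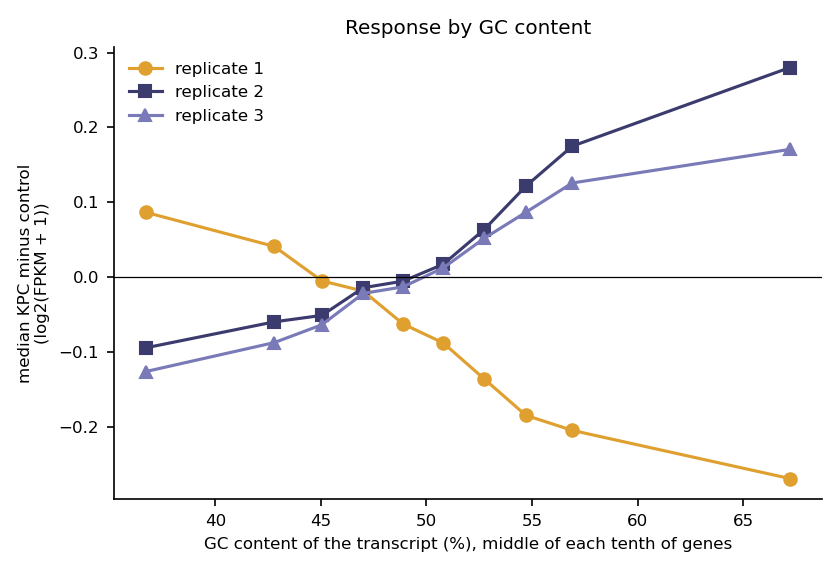
The y axis gives the median KPC minus control difference (log2(FPKM + 1)) of 10 groups of genes of rising transcript GC content (x axis, percent), with 1 line per replicate. The line of replicate 1 falls with GC content and those of replicates 2 and 3 rise.

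Among matrix genes, the fibrillar collagens, which build the fibres of scar tissue, had the highest median of the 49 families. Of 10 listed members 7 were tested, with differences from 0.23 to 0.82 and a median of 0.62, against -0.0096 over all genes. The family median was 0.25 in replicate 1 and 0.75 in replicates 2 and 3, and 6 of 7 members had 1 sign in both. Col1a1, the main chain of collagen I, stood at 136, 186 and 240.3 FPKM in KPC libraries, against 93.0, 113 and 114 FPKM in control libraries. All KPC libraries lay above all control libraries, with the KPC library of replicate 1 nearest to them (log2 0.78, SE 0.21, adjusted p = 0.302, and 0.0224 with the replicate block). Col5a2, a collagen V chain, stood at 29.4, 40.3 and 50.6 FPKM in KPC libraries, against 22.3, 26.4 and 26.3 FPKM in control libraries (log2 0.63, adjusted p = 0.393, and 0.0476 with the block). Col3a1, the chain of collagen III, was at 20.7, 34.1 and 38.3 FPKM in KPC libraries, against 17.2, 21.4 and 20.9 FPKM in control libraries, where the lowest KPC value lay below 2 of the control values, and it passed in replicates 2 and 3 (log2 0.75, adjusted p = 0.0137) and not over all replicates as deposited (adjusted p = 0.682, and 0.0560 with the block), while with the block and GC-adjusted values it passed (adjusted p = 0.0140). In replicates 2 and 3, 5 of the 7 fibrillar collagens passed as higher, against 0.993% of all genes. The median GC content of the family was 58.0%, where genes at large were lower in replicate 1 and higher in replicates 2 and 3. After GC adjustment its median was 0.39 in replicate 1 and 0.70 in replicates 2 and 3.

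The small leucine-rich proteoglycans, which sit on collagen fibrils, were the family in which every one of 7 tested members had the same sign in replicate 1 and in replicates 2 and 3, with members going both ways. Aspn (asporin) stood at 34.2, 18.8 and 27.3 FPKM in KPC libraries, against 12.3, 9.47 and 10.9 FPKM in control libraries. Bgn (biglycan) was at 174, 155 and 169 FPKM in KPC libraries, against 107, 86.4 and 94.0 FPKM in control libraries. Ogn (osteoglycin) stood at 11.4, 8.20 and 6.53 FPKM in KPC libraries, against 16.3, 17.0 and 16.5 FPKM in control libraries. For each of these the groups did not overlap. Aspn (log2 1.19, adjusted p = 0.137), Bgn (log2 0.79, adjusted p = 0.0786) and Ogn (log2 -0.89, adjusted p = 0.137) passed with the replicate block, at adjusted p = 0.00967, 0.00865 and 0.0261. The difference of Aspn was 1.41 in replicate 1 and 1.08 in replicates 2 and 3.

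Elastic fibre and microfibril proteins had a median of -0.17 in replicate 1 and 0.34 in replicates 2 and 3, so the family median changed sign, yet 11 of 14 members agreed in sign, and all 14 did after GC adjustment. Fbln2 (fibulin 2) was at 32.2, 68.0 and 86.4 FPKM in KPC libraries, against 21.3, 33.1 and 34.7 FPKM in control libraries, where the lowest KPC value lay below 2 control values (log2 0.96, adjusted p = 0.682, and 0.0187 with the block). Fbn1 (fibrillin 1) was at 12.7, 13.1 and 19.3 FPKM in KPC libraries, against 8.30, 8.43 and 8.39 FPKM in control libraries (log2 0.75, adjusted p = 0.137, and 0.0483 with the block), and Efemp1, a fibulin-like glycoprotein, at 277, 237 and 179 FPKM in KPC libraries, against 411, 346 and 353 FPKM in control libraries (log2 -0.69, adjusted p = 0.258, and 0.0261 with the block). Those 3 were the members that passed with the block. The lysyl oxidases, which cross-link collagen and elastin, had 3 of 4 members of 1 sign and a median of 0.061 in replicate 1 and 0.34 in replicates 2 and 3. Lox itself was at 322, 386 and 476 FPKM in KPC libraries, against 247, 326 and 302 FPKM in control libraries, with overlapping groups (adjusted p = 0.639), and Loxl3 at 6.09, 10.3 and 11.9 FPKM in KPC libraries, against 5.74, 7.24 and 7.97 FPKM in control libraries (adjusted p = 0.9999).

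Of 24 collagen hydroxylases and chaperones, which modify and fold procollagen, 13 agreed in sign between replicate 1 and replicates 2 and 3, close to the share of all genes, and 17 after GC adjustment. Plod2, a lysyl hydroxylase, was at 24.4, 26.0 and 26.0 FPKM in KPC libraries, against 16.8, 18.8 and 18.4 FPKM in control libraries. P4ha2, a prolyl hydroxylase subunit, was at 15.4, 20.3 and 20.03 FPKM in KPC libraries, against 12.1, 12.9 and 13.6 FPKM in control libraries. Neither gene had overlapping groups, and they passed with the block (adjusted p = 0.0163 and 0.0398, against 0.0786 and 0.425 without it). Basement membrane genes had 1 lower call of 12 with the block, Col4a6 (log2 -0.52, adjusted p = 0.0485 with the block and 0.881 without), and a median of -0.30 in replicate 1 and 0.077 in replicates 2 and 3. The network and fibril-associated collagens had no call among 7, with Col7a1 at log2 0.54 (adjusted p = 0.530) and Col12a1 at log2 0.14 (adjusted p = 0.9999).

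Among secreted and matricellular proteins, Ctgf, a growth factor that binds matrix and a classic target of both Smad and Yap signalling (ENSMUSG00000019997.11, chromosome 10, 24595442 to 24598683, GRCm38), rose with KPC exosomes. It stood at 85.5, 95.9 and 114 FPKM in KPC libraries, against 51.4, 48.7 and 49.1 FPKM in control libraries. The lowest KPC library lay well above the highest control library (log2 0.96, SE 0.12, adjusted p = 0.0247), with a difference of 0.72 in replicate 1 and 1.08 in replicates 2 and 3. Its relative Wisp1 was at 10.2, 10.6 and 14.7 FPKM in KPC libraries, against 5.65, 7.999 and 7.87 FPKM in control libraries. Cthrc1, a secreted collagen triple helix protein, was at 1.89, 2.64 and 2.31 FPKM in KPC libraries, against 1.10, 1.39 and 1.19 FPKM in control libraries. Both passed with the block only (adjusted p = 0.0496 and 0.0221, against 0.393 and 0.175 without). Thbs2 (thrombospondin 2) was at 58.2, 63.0 and 71.7 FPKM in KPC libraries, against 82.1, 101 and 95.7 FPKM in control libraries, and was lower with the block (log2 -0.53, adjusted p = 0.0291, 0.209 without). Fn1 (fibronectin) was at 249, 306 and 377 FPKM in KPC libraries, against 245, 273 and 267 FPKM in control libraries, and did not pass (log2 0.23, adjusted p = 0.9999), with almost no difference in replicate 1 (0.021) and 0.33 in replicates 2 and 3. In this family 13 of 17 members agreed in sign, and Spp1 (osteopontin) was at 344, 342 and 362 FPKM in KPC libraries, against 362, 404 and 369 FPKM in control libraries (adjusted p = 0.9999).

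Hyaluronan, a long matrix sugar, had its synthase and one of its degrading proteins moving in opposite directions. Has2, the synthase, stood at 10.9, 11.3 and 13.1 FPKM in KPC libraries, against 5.14, 6.44 and 5.57 FPKM in control libraries, and rose (log2 0.93, SE 0.12, adjusted p = 0.0259). Cemip, which promotes hyaluronan breakdown, stood at 4.01, 5.38 and 5.74 FPKM in KPC libraries, against 8.96, 10.2 and 12.1 FPKM in control libraries, and was lower with the block (log2 -0.92, adjusted p = 0.00687, 0.0899 without). Replicate 1 gave 0.95 for Has2 and -0.99 for Cemip, and replicates 2 and 3 gave 0.91 and -0.88. Cd44, the hyaluronan receptor, was at 48.2, 41.0 and 46.8 FPKM in KPC libraries, against 46.4, 49.9 and 47.3 FPKM in control libraries (adjusted p = 0.9999). Over the 11 tested genes of this family 6 agreed in sign.

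Adam12, a metalloprotease anchored in the membrane that mesenchymal cells make (ENSMUSG00000054555.11, chromosome 7, 133883199 to 134232146), stood at 6.32, 6.54 and 10.4 FPKM in KPC libraries, against 1.13, 1.46 and 1.51 FPKM in control libraries. Every KPC library exceeded every control library several times over (log2 1.86, SE 0.18, adjusted p = 0.0114), by 1.78 in replicate 1 and 1.90 in replicates 2 and 3. It was the only one of 7 tested Adam genes to pass in the fits with or without the block. No Adamts protease of 10 passed in these fits, with Adamts12 at 3.06, 3.15 and 3.87 FPKM in KPC libraries, against 1.77, 1.99 and 2.10 FPKM in control libraries (log2 0.56, adjusted p = 0.137), and Adamts5, an aggrecan-cleaving protease, at 6.03, 6.73 and 6.37 FPKM in KPC libraries, against 8.41, 10.7 and 9.11 FPKM in control libraries (log2 -0.49, adjusted p = 0.189). The family agreed in sign in 5 of 10. Of 8 matrix metalloproteases and their inhibitors, Mmp19 was lower with the block (log2 -0.47, adjusted p = 0.0328, 0.231 without), and the inhibitor Timp1 was at 41.1, 65.4 and 70.4 FPKM in KPC libraries, against 39.7, 52.1 and 49.2 FPKM in control libraries (adjusted p = 0.9999). Among 8 plasminogen activators and serpins, Serpinb9b was lower with the block (log2 -0.57, adjusted p = 0.0389, 0.212 without), and 6 agreed in sign.

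**Figure D3:**
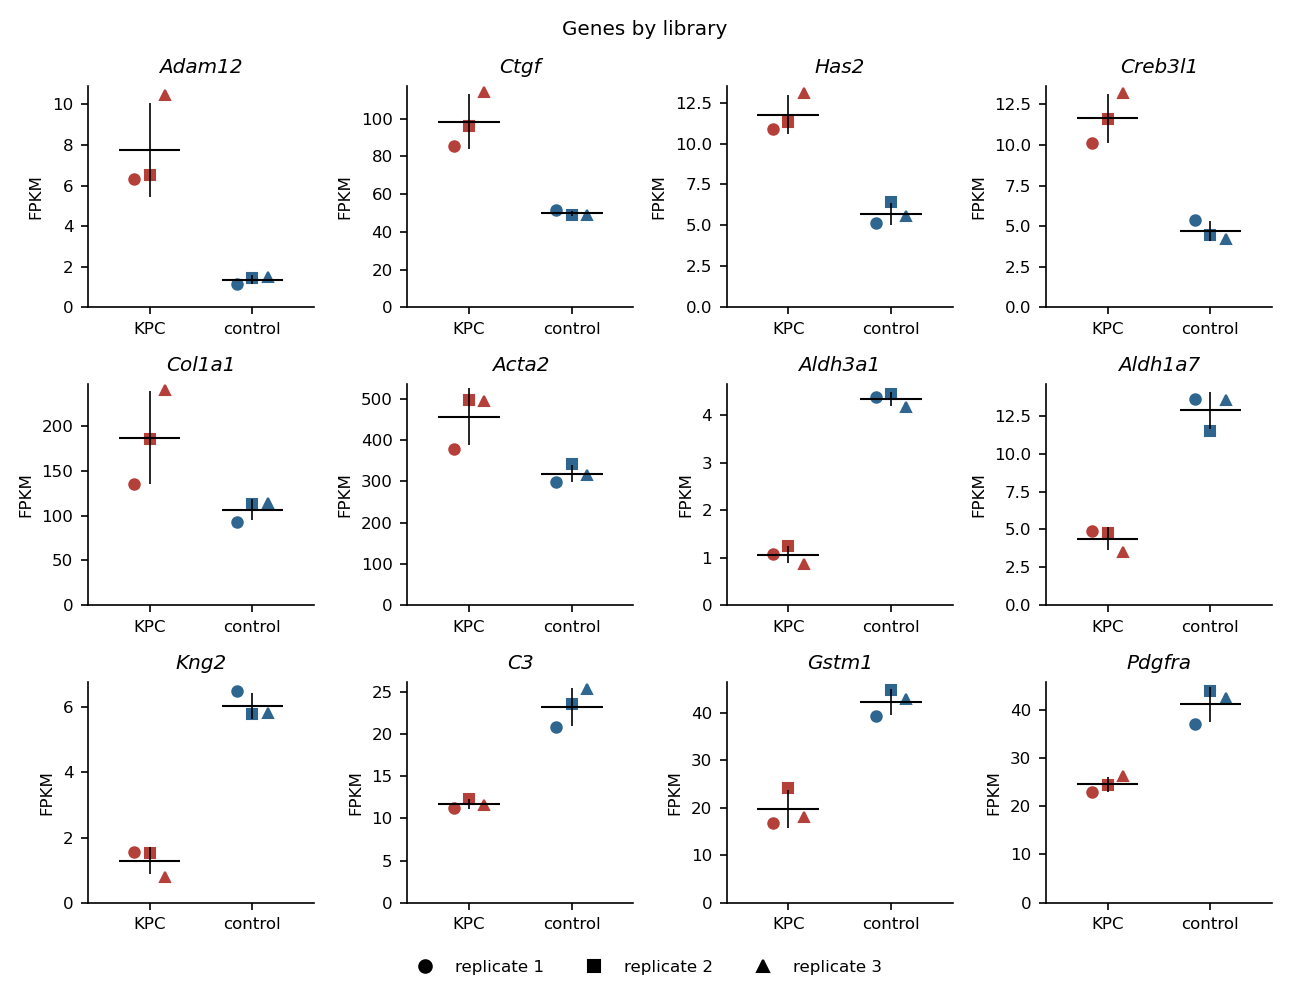
FPKM of 12 genes in each library (y axis, from 0), with KPC libraries in red and control libraries in blue, a symbol for each replicate number, and the mean with its SD (n = 3) as a horizontal and a vertical line. In each of the 12 genes the KPC and control libraries do not overlap, against 11.4% of all tested genes. The 12 were picked from genes that passed with or without the block, so this separation follows in part from the choice.

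The contractile genes that passed were all higher with KPC exosomes: Tnnt2, and with the block also 3 muscle actins and Tagln. Tnnt2, the troponin T of heart muscle (ENSMUSG00000026414.13, chromosome 1, 135836354 to 135852260), stood at 3.77, 2.27 and 3.67 FPKM in KPC libraries, against 0.376, 0.120 and 0.278 FPKM in control libraries, and rose (log2 1.74, SE 0.21, adjusted p = 0.0247) by 1.79 in replicate 1 and 1.71 in replicates 2 and 3. Acta2, the smooth muscle actin that marks myofibroblasts, stood at 379, 499 and 495 FPKM in KPC libraries, against 299, 341 and 315 FPKM in control libraries. Its groups did not overlap, and it passed with the block (log2 0.51, SE 0.15, adjusted p = 0.0404, 0.371 without). Acta1, skeletal muscle actin, was at 2.18, 4.85 and 7.88 FPKM in KPC libraries, against 0.508, 0.626 and 0.556 FPKM in control libraries. Actg2, enteric smooth muscle actin, was at 11.97, 17.4 and 17.3 FPKM in KPC libraries, against 7.70, 7.91 and 9.07 FPKM in control libraries. Tagln (transgelin), an actin-binding protein of smooth muscle, was at 49.5, 98.0 and 115 FPKM in KPC libraries, against 35.4, 49.3 and 43.3 FPKM in control libraries. These 3 passed with the block (adjusted p = 0.0224, 0.0195 and 0.0328, against 0.212, 0.252 and 0.590 without), and each had a smaller difference in replicate 1 (1.08, 0.58 and 0.47) than in replicates 2 and 3 (2.18, 0.96 and 1.18). Actin genes are close in sequence, and how reads that fit several of them were split is not known. Over all 34 members the median was -0.074 in replicate 1 and 0.16 in replicates 2 and 3, and 19 agreed in sign.

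The start regions of Tnnt2 and Acta2 are shown because Tnnt2 was the contractile gene that passed without the block and Acta2 the most abundant one that passed with it, and both hold GGAATG, a core bound by Tead factors. Each runs from 250 bases before to 50 bases after a RefSeq transcript start (build GRCm38.p6), 5′ to 3′ on the gene's strand, and the capitals mark GGAATG or its reverse complement CATTCC. Tnnt2 lies on the plus strand at chr1:135836084-135836383 with the motif on the opposite strand, 27 bases before the start. Acta2 lies on the minus strand at chr19:34255324-34255623 with the motif on its own strand, 146 bases before the start.
Tnnt2: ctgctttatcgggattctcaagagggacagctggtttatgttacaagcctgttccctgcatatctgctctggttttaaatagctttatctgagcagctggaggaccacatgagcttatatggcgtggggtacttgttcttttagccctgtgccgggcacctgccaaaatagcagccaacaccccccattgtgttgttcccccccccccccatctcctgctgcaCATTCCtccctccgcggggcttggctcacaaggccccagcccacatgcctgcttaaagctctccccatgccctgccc
Acta2: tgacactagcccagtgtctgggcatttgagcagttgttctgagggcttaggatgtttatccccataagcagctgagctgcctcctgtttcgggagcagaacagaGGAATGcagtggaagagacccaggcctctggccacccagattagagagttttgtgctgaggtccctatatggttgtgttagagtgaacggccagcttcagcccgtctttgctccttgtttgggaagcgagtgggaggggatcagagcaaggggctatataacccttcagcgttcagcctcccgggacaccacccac
GGAATG stood on either strand in 2 of the 7 higher genes, of 13, that have a start region in the RefSeq table, in 4 of 17 lower genes and in 13.7% of 8132 tested genes. Among genes that passed with the block, as Acta2 did, it stood in 5 of 34 higher genes (14.7%) and 22 of 86 lower genes (25.6%). It was therefore not particular to the higher genes. TGACNNNGC, the core of the antioxidant element, stood in 0 of 7 higher genes, 0 of 17 lower genes and 16.9% of tested genes. GCGTG, the core of the xenobiotic element, stood in 4 of 7 higher genes, 6 of 17 lower genes and 58.6% of tested genes. CAGACA, a Smad element, stood in 3 of 7 higher genes, 3 of 17 lower genes and 17.9% of tested genes. Motifs were searched on both strands and in all listed starts of a gene. A match of these letters is a description of the sequence and not a measured site.

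Of the TGF-beta pathway, the feedback gene Pmepa1, which restrains Smad signalling, was the one that passed without the block. It stood at 14.2, 18.8 and 26.5 FPKM in KPC libraries, against 6.79, 5.03 and 6.67 FPKM in control libraries, and rose (log2 1.51, SE 0.20, adjusted p = 0.0259), by 0.97 in replicate 1 and 1.78 in replicates 2 and 3. Ldlrad4, another inhibitor of Smad activation, stood at 10.0, 7.26 and 10.00 FPKM in KPC libraries, against 5.69, 4.30 and 4.29 FPKM in control libraries, and passed with the block (adjusted p = 0.0174, 0.137 without). Smad3, a signalling Smad, was slightly lower in each KPC library, at 8.52, 8.77 and 8.98 FPKM in KPC libraries, against 10.98, 12.3 and 12.1 FPKM in control libraries (log2 -0.39, adjusted p = 0.0483 with the block, 0.175 without). The 3 genes kept their direction in replicate 1, but their calls used replicate 1, so this is no separate result. Over the 21 Smads and feedback genes 10 agreed in sign. Of the ligands, Inhba (the activin A subunit) was at 17.4, 13.4 and 13.9 FPKM in KPC libraries, against 10.2, 9.10 and 9.27 FPKM in control libraries. Its antagonist Fst (follistatin) was at 3.79, 3.58 and 2.99 FPKM in KPC libraries, against 5.37, 5.32 and 5.10 FPKM in control libraries. Both passed with the block, in opposite directions (adjusted p = 0.0155 and 0.0419, against 0.212 and 0.156 without). Tgfb1 was at 2.82, 5.85 and 7.34 FPKM in KPC libraries, against 3.81, 4.59 and 5.55 FPKM in control libraries, with a difference of -0.33 in replicate 1 and 0.32 in replicates 2 and 3 (adjusted p = 0.9999). The ligands, receptors and latency proteins agreed in sign in 11 of 16.

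In the BMP family, which can oppose TGF-beta in fibrosis, 12 of 15 members agreed in sign. Id2 and Id3, transcriptional inhibitors induced by BMP, were lower: Id2 stood at 12.5, 14.9 and 10.1 FPKM in KPC libraries, against 22.4, 23.2 and 22.7 FPKM in control libraries. Id3 was at 4.21, 18.3 and 14.3 FPKM in KPC libraries, against 10.3, 23.6 and 24.7 FPKM in control libraries. Both passed with the block (adjusted p = 0.0224 for Id2 and 0.0476 for Id3, against 0.0525 and 0.9999 without). Values of Id3 depended strongly on the replicate, with both replicate 1 libraries lowest in their group. Among 28 genes of the Yap-Tead pathway and its targets Ctgf was the only one to pass with or without the block, the median was -0.020 in replicate 1 and 0.028 in replicates 2 and 3, and 18 agreed in sign.

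Growth factor receptors and cytokines gave few calls. Pdgfra, a platelet-derived growth factor receptor of mesenchymal cells (ENSMUSG00000029231.15, chromosome 5, 75152292 to 75198215), stood at 22.99, 24.5 and 26.2 FPKM in KPC libraries, against 37.0, 43.9 and 42.4 FPKM in control libraries, and fell (log2 -0.72, SE 0.098, adjusted p = 0.0260), with similar differences in replicate 1 (-0.66) and in replicates 2 and 3 (-0.75). Pdgfrb, the receptor that drives stellate cell growth, was at 9.03, 12.2 and 19.5 FPKM in KPC libraries, against 11.4, 12.6 and 14.3 FPKM in control libraries (log2 0.024, adjusted p = 0.9999). Fgf21 passed with the block at low levels of 0.626, 1.22 and 1.59 FPKM in KPC libraries, against 0.298, 0.160 and 0.347 FPKM in control libraries (adjusted p = 0.0423, 0.254 without). Vegfa, the angiogenic factor, stood at 26.5, 25.5 and 31.5 FPKM in KPC libraries, against 17.0, 16.3 and 16.6 FPKM in control libraries, and rose (log2 0.70, SE 0.098, adjusted p = 0.0291). Il11, a profibrotic cytokine of the interleukin 6 family, stood at 5.90, 6.48 and 6.78 FPKM in KPC libraries, against 3.89, 3.54 and 3.56 FPKM in control libraries, and rose (log2 0.66, SE 0.089, adjusted p = 0.0259). Il6 itself was at 1.23, 1.37 and 1.10 FPKM in KPC libraries, against 1.604, 2.27 and 2.29 FPKM in control libraries, and did not pass (log2 -0.44, adjusted p = 0.258). Igfbp7, a secreted binding protein of activated stroma, was at 24.0, 17.5 and 27.1 FPKM in KPC libraries, against 13.1, 7.96 and 10.1 FPKM in control libraries (adjusted p = 0.0155 with the block, 0.154 without). Signs agreed in 9 of 16 PDGF and FGF genes, 7 of 11 IGF genes, 12 of 15 vascular factors and 11 of 19 genes of the interleukin 6 family.

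Complement, pentraxin and kininogen genes gave the lowest family median and nearly the same one in replicate 1 (-0.73) and in replicates 2 and 3 (-0.66). Of 13 tested members 5 passed as lower, and 6 with the block, against 0.203% and 1.09% of all genes. Kng2, a kininogen from which kinins are released (ENSMUSG00000060459.13, chromosome 16, 22985854 to 23029101), stood at 1.54, 1.53 and 0.803 FPKM in KPC libraries, against 6.49, 5.80 and 5.83 FPKM in control libraries (log2 -1.64, SE 0.15, adjusted p = 0.0107). C3, on which all complement pathways converge (ENSMUSG00000024164.15, chromosome 17, 57203970 to 57228136), stood at 11.2, 12.3 and 11.5 FPKM in KPC libraries, against 20.8, 23.5 and 25.3 FPKM in control libraries (log2 -0.93, SE 0.096, adjusted p = 0.0127). Each KPC library lay at about the same low level of C3, including replicate 1. C1s1, a serine protease of the C1 complex, stood at 21.7, 26.0 and 20.2 FPKM in KPC libraries, against 48.6, 51.7 and 53.3 FPKM in control libraries (log2 -1.15, adjusted p = 0.0127), and its relative C1s2 at 1.96, 2.34 and 1.85 FPKM in KPC libraries, against 3.92, 4.802 and 5.07 FPKM in control libraries (log2 -0.87, adjusted p = 0.0297). Ptx3, a soluble pattern recognition protein, stood at 7.65, 8.13 and 6.52 FPKM in KPC libraries, against 14.04, 16.5 and 14.3 FPKM in control libraries (log2 -0.92, adjusted p = 0.0230). C1ra, the partner protease of C1s, passed with the block (log2 -0.76, adjusted p = 0.0111, 0.0969 without). The C1r, C1s and kininogen genes have close copies between which reads may have been split. In sign 10 of 13 members agreed. The 6 called members did so in all 3 replicates, which their calls had used.

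Other immune families gave few calls. Among the 10 tested chemokines of the list Cxcl5 was lower with the block, at 129, 142 and 146 FPKM in KPC libraries, against 177, 213 and 189 FPKM in control libraries (adjusted p = 0.0322, 0.175 without). Ccl17, a chemokine that is not on the list, was higher with the block (log2 0.99, adjusted p = 0.0291, 0.0950 without). The monocyte attractant Ccl2 was at 76.0, 122.9 and 145 FPKM in KPC libraries, against 63.7, 104 and 94.3 FPKM in control libraries (log2 0.37, adjusted p = 0.9999). Of 26 NF-kB genes the receptor Tlr4 was lower with the block, at 8.998, 8.64 and 9.65 FPKM in KPC libraries, against 11.8, 15.8 and 14.4 FPKM in control libraries (adjusted p = 0.0414, 0.137 without), and 13 agreed in sign. Of the 23 tested interferon and antigen presentation genes of the list none passed with or without the block, and 9 agreed in sign, below the share of all genes. The lowest p among them belonged to Gbp2 (log2 -0.42, adjusted p = 0.255) and Ifit3b (log2 -0.31, adjusted p = 0.696). The interferon-induced Ifi27l2a, which is not on the list, was lower with the block (log2 -0.98, adjusted p = 0.0384, 0.830 without).

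Aldehyde and xenobiotic detoxification enzymes formed the family with the most calls when the block was used. Of 29 tested members 5 passed as lower, and with the block 9 as lower and 1 as higher. Over all genes 0.203% passed as lower, and with the block 1.09% as lower and 0.588% as higher. In 23 members the sign was the same in replicate 1 and in replicates 2 and 3. Aldh3a1, which oxidises aromatic and lipid aldehydes (ENSMUSG00000019102.10, chromosome 11, 61207537 to 61218421), stood at 1.07, 1.24 and 0.874 FPKM in KPC libraries, against 4.38, 4.45 and 4.17 FPKM in control libraries. The difference was the same in replicate 1 (-1.38) and in replicates 2 and 3 (-1.37), and its adjusted p was the lowest of all genes (log2 -1.38, SE 0.11, adjusted p = 0.00869). Aldh1a7, an aldehyde dehydrogenase close to Aldh1a1, stood at 4.92, 4.74 and 3.53 FPKM in KPC libraries, against 13.6, 11.5 and 13.6 FPKM in control libraries (log2 -1.37, SE 0.13, adjusted p = 0.0107). Aldh1a1, which makes retinoic acid from retinal, stood at 1.38, 1.11 and 0.982 FPKM in KPC libraries, against 2.99, 2.71 and 2.55 FPKM in control libraries (log2 -0.80, adjusted p = 0.0329), and reads may have been split between these 2 genes. Xdh, the purine-degrading xanthine dehydrogenase, stood at 38.0, 46.6 and 43.0 FPKM in KPC libraries, against 74.6, 86.0 and 87.6 FPKM in control libraries (log2 -0.94, SE 0.12, adjusted p = 0.0247). Akr1c14, an aldo-keto reductase with close copies, fell (log2 -0.72, adjusted p = 0.0304). Aldh1l2, a mitochondrial folate enzyme named in the same gene family, went the other way, at 24.1, 22.5 and 27.6 FPKM in KPC libraries, against 15.6, 16.6 and 15.99 FPKM in control libraries (log2 0.59, adjusted p = 0.0307 with the block, 0.0750 without).

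Of 35 glutathione and Nrf2 genes 2 passed as lower, and 4 with the block, against 0.203% and 1.09% of all genes. The family median was -0.21 in replicate 1 and -0.044 in replicates 2 and 3. Gstm1, a glutathione transferase, stood at 16.9, 24.2 and 18.1 FPKM in KPC libraries, against 39.2, 44.7 and 42.8 FPKM in control libraries (log2 -1.08, SE 0.16, adjusted p = 0.0363). Gsta4, a transferase for the lipid aldehyde hydroxynonenal, stood at 47.8, 47.4 and 36.9 FPKM in KPC libraries, against 85.7, 83.7 and 77.4 FPKM in control libraries (log2 -0.89, SE 0.12, adjusted p = 0.0259). The microsomal transferases Mgst1 and Mgst2 passed with the block (log2 -0.72 and -0.59, adjusted p = 0.00687 and 0.0374, against 0.0899 and 0.380 without). All 4 called members were lower in every replicate, which their calls had used, and over the family 21 of 35 agreed in sign. The quiescent stellate cell and lipid droplet genes agreed in sign in 12 of 18, and Aldh1a1 was the one that passed with or without the block. In the thyroid and steroid response family Dio2, which converts thyroxine to active thyroid hormone (ENSMUSG00000007682.6, chromosome 12, 90724552 to 90738438), stood at 7.53, 4.96 and 4.15 FPKM in KPC libraries, against 17.3, 15.7 and 18.7 FPKM in control libraries, and fell (log2 -1.51, SE 0.20, adjusted p = 0.0259), with differences of -1.10 in replicate 1 and -1.71 in replicates 2 and 3.

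Mitochondrial and ribosomal genes differed between replicate 1 and the other replicates. Mitochondrially encoded genes agreed in sign in 2 of 13 members, with a median of 0.38 in replicate 1 and -0.34 in replicates 2 and 3. The cytochrome oxidase subunit gene mt-Co1 stood at 10337, 5262 and 4227 FPKM in KPC libraries, against 9192, 6149.9 and 5831 FPKM in control libraries (adjusted p = 0.9999), while mt-Co3 was lower in all 3 pairs without passing (adjusted p = 0.9999). Nuclear genes of oxidative phosphorylation agreed in 20 of 49, with medians of -0.26 in replicate 1 and 0.027 in replicates 2 and 3. Of them Uqcrc2 (log2 -0.16) and Ndufb3 (log2 -0.21) had the lowest p, at an adjusted p of 0.861 and 0.9999. The 73 cytosolic ribosomal protein genes were all below 0 in replicate 1, with a median of -0.32, and 28 of them were above 0 in replicates 2 and 3, with a median of -0.047. Rps25 stood at log2 -0.45 (adjusted p = 0.631), and none of the family passed over all replicates. Cell cycle and replication genes had a median near 0 in both (-0.070 and -0.017), and the proliferation marker Mki67 stood at 95.7, 55.7 and 48.2 FPKM in KPC libraries, against 66.5, 53.0 and 59.7 FPKM in control libraries, with differences of 0.52 in replicate 1 and -0.12 in replicates 2 and 3 (adjusted p = 0.9999). Ccne2 (cyclin E2, log2 0.32, adjusted p = 0.698) and Ccnb2 (cyclin B2, log2 -0.19, adjusted p = 0.893) had the lowest p of this family.

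Lipid synthesis, glycolysis and stress families had medians above 0 in replicates 2 and 3 and near 0 in replicate 1. The median of 26 cholesterol synthesis genes was 0.031 in replicate 1 and 0.19 in replicates 2 and 3, and 12 members agreed in sign, or 22 after GC adjustment. Acat2, a thiolase of sterol synthesis, was at 119, 144 and 134 FPKM in KPC libraries, against 107, 116 and 115 FPKM in control libraries, higher in every replicate (log2 0.23, adjusted p = 0.778), as was Nsdhl (log2 0.23, adjusted p = 0.503). Fatty acid synthesis genes agreed in 8 of 17, with the desaturase Fads2 at log2 0.35 (adjusted p = 0.265) and Acsl3 at log2 0.29 (adjusted p = 0.893). For glycolysis and hypoxia the medians were -0.045 in replicate 1 and 0.18 in replicates 2 and 3, and beside Vegfa the oxidase Ero1l (adjusted p = 0.0337) and the mTOR inhibitor Ddit4 (adjusted p = 0.0356) passed with the block (without it 0.539 and 0.692). Among 32 ER stress genes Creb3l1, an ER-bound transcription factor for collagen I, stood at 10.1, 11.6 and 13.2 FPKM in KPC libraries, against 5.39, 4.44 and 4.23 FPKM in control libraries, and rose (log2 1.15, SE 0.12, adjusted p = 0.0127). It was higher in every replicate, and its call used all of them. Of its family 11 members agreed in sign. The amino acid stress genes had medians of -0.0088 and 0.28, agreed in 17 of 28, or 22 after GC adjustment, and had no call with or without the block but 2 higher ones in replicates 2 and 3, with the asparaginyl-tRNA synthetase Nars at log2 0.22 (adjusted p = 0.775) and the arginine carrier Slc7a1 at log2 0.24 (adjusted p = 0.670).

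**Figure D4:**
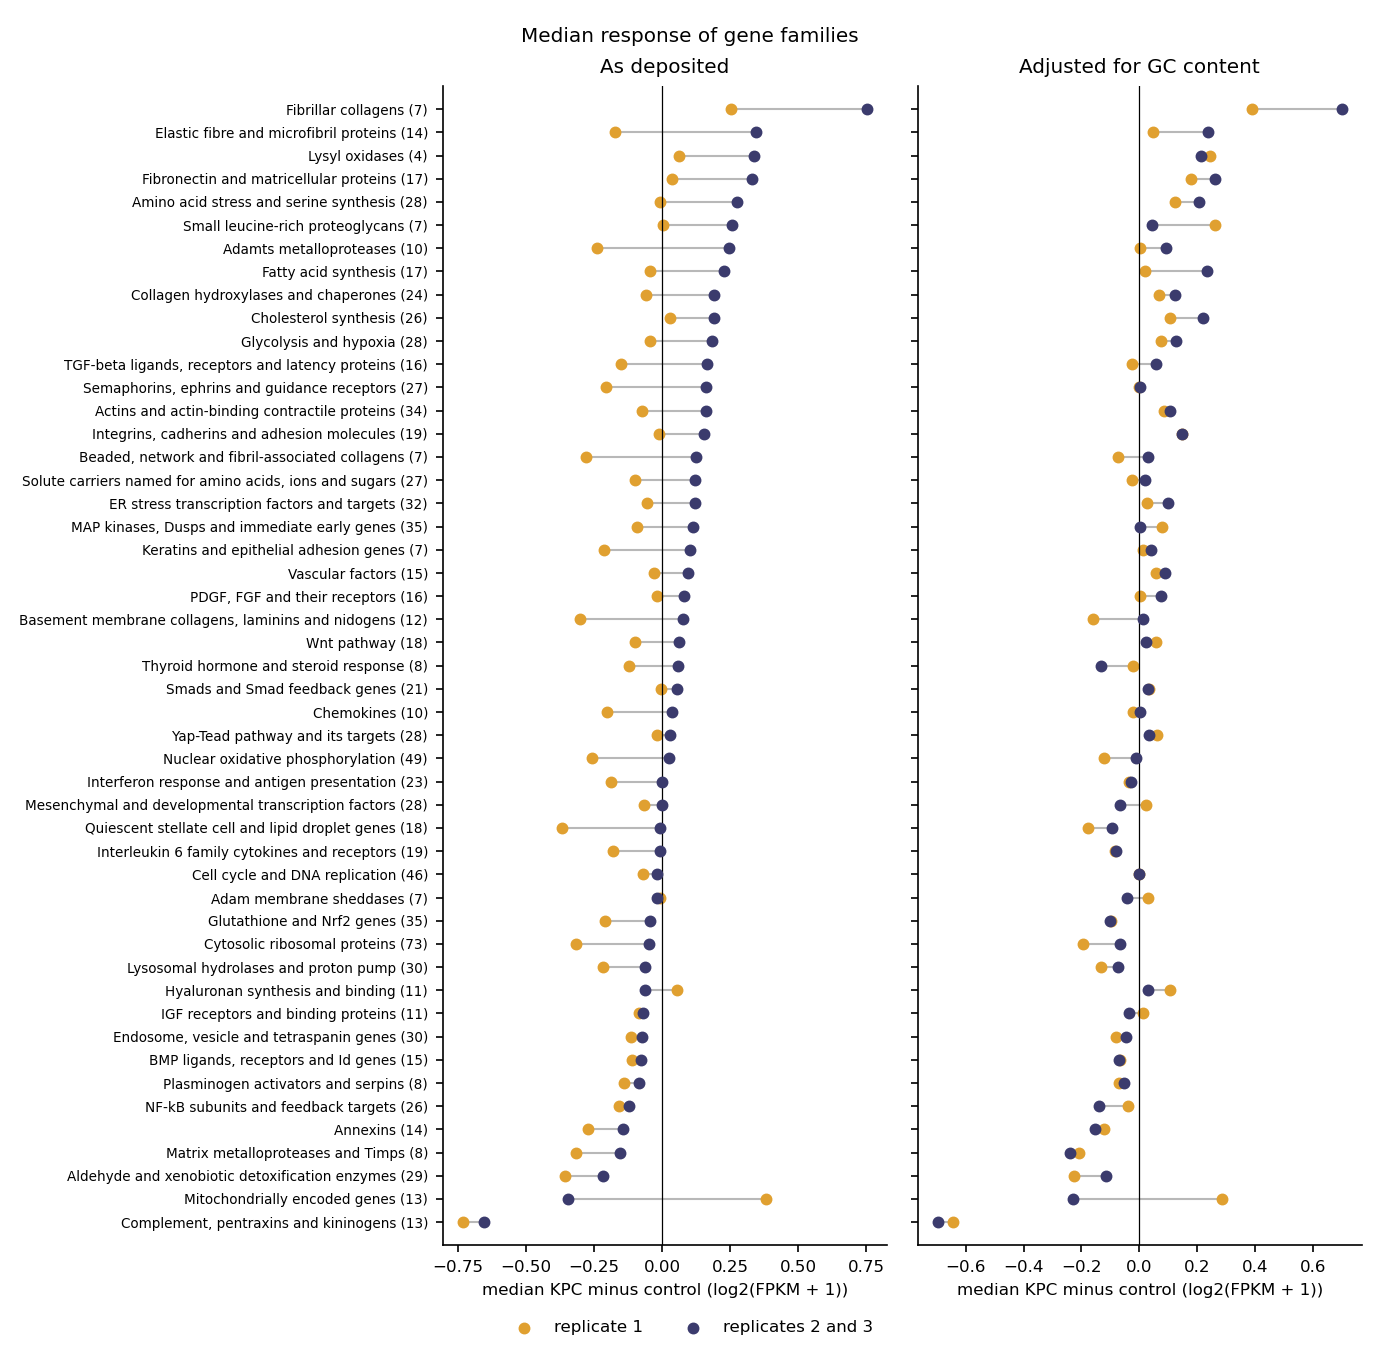
Median KPC minus control difference (log2(FPKM + 1), x axis) of 49 gene families (rows, with the number of tested members in brackets) in replicate 1 and in replicates 2 and 3, as deposited on the left and after GC adjustment on the right. Fibrillar collagens lie highest and complement genes lowest in replicates 2 and 3, and the mitochondrially encoded genes lie on opposite sides of 0 in both panels.

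The medians of replicate 1 and of replicates 2 and 3 had 1 sign in 22 of 49 families, and in 39 of 49 after GC adjustment. In replicate 1, 42 of the 49 medians were below 0, and over all genes the median there was -0.075. The adhesion families held 2 higher genes beside Ncam1. Alcam, a cell adhesion molecule, stood at 19.2, 16.9 and 20.4 FPKM in KPC libraries, against 11.04, 11.1 and 11.3 FPKM in control libraries, and rose by nearly the same in replicate 1 (0.75) as in replicates 2 and 3 (0.68, log2 over all 0.70, SE 0.095, adjusted p = 0.0259). Anxa8, a calcium-dependent membrane binding annexin, stood at 1.63, 1.79 and 2.06 FPKM in KPC libraries, against 0.495, 0.453 and 0.352 FPKM in control libraries, and rose (log2 0.98, SE 0.14, adjusted p = 0.0363). Ncam1, the neural cell adhesion molecule found on stellate cells, was at 14.1, 15.4 and 18.9 FPKM in KPC libraries, against 9.56, 10.2 and 8.06 FPKM in control libraries (adjusted p = 0.0356 with the block, 0.0786 without), and Anxa1 was lower with the block (log2 -0.48, adjusted p = 0.0439, 0.692 without). Signs agreed in 14 of 19 adhesion molecules and 11 of 14 annexins. Keratins and epithelial adhesion genes had no call among 7, with Krt8 at 1.74, 1.93 and 1.70 FPKM in KPC libraries, against 0.251, 0.127 and 1.27 FPKM in control libraries (adjusted p = 0.641), and the desmosomal Pkp2 at log2 0.10 (adjusted p = 0.9999).

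The guidance family held Sema7a, a membrane semaphorin, at 3.20, 5.44 and 7.08 FPKM in KPC libraries, against 1.35, 1.76 and 1.94 FPKM in control libraries (log2 1.17, adjusted p = 0.00967 with the block, 0.204 without), and 11 of its 27 members agreed in sign, or 21 after GC adjustment. Vesicle genes, through which cells take up and shed exosomes, had no call among 30, with the caveolar coat genes Cav1 (log2 -0.44, adjusted p = 0.737) and Cav2 (log2 -0.25, adjusted p = 0.542) at the lowest p. Among 30 lysosomal genes Ctsw, a protease of cytotoxic lymphocytes, stood at 3.60, 8.42 and 19.9 FPKM in KPC libraries, against 0.122, 0 and 0 FPKM in control libraries, and passed (log2 3.22, a size that depends on the added 1 FPKM because 2 control libraries are listed at 0, adjusted p = 0.0363). Fibp, on the other strand, has exons that overlap it, and whether reads were assigned by strand is not given, so its level is uncertain, and no lymphocyte marker was in the table. Exons of Akr1c14, C1s1, Ctgf, Dio2, Gm2115, Has2, Heg1, Pdgfra and Ptgfr also overlap another annotated gene, which for all but Akr1c14 lies on the other strand, with a microRNA gene on the same strand in Pdgfra. With or without the block no call fell among MAP kinase and immediate early genes (17 of 35 agreed in sign), where Dusp1 was at log2 -0.48 (adjusted p = 0.254) and Ier3 at log2 0.53 (adjusted p = 0.261, and 0.0450 in replicates 2 and 3). The same held for the Wnt pathway (8 of 18), with Ryk at log2 -0.20 (adjusted p = 0.811) and Fzd7 at log2 0.23 (adjusted p = 0.963), and for mesenchymal and developmental transcription factors (13 of 28), with Hes1 at log2 0.90 (adjusted p = 0.544) and Runx2 at log2 0.40 (adjusted p = 0.582). Of 27 solute carriers the glutamate carrier Slc1a3 was lower with the block (log2 -0.58, adjusted p = 0.0479, 0.618 without), and 16 agreed in sign.

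Of the 34 genes that passed, 9 belonged to none of the families. C1qtnf3, a secreted relative of C1q and TNF, stood at 1.42, 1.48 and 2.28 FPKM in KPC libraries, against 0.282, 0.186 and 0.251 FPKM in control libraries. Dock8, an exchange factor for Cdc42, was at 9.92, 11.9 and 15.3 FPKM in KPC libraries, against 5.04, 5.33 and 5.00 FPKM in control libraries, and both rose (log2 1.12 and 1.11, each with adjusted p = 0.0259). Pdk4, the kinase that turns off pyruvate oxidation in fasting, stood at 15.2, 15.1 and 13.1 FPKM in KPC libraries, against 23.4, 25.2 and 23.3 FPKM in control libraries, and fell (log2 -0.70, SE 0.089, adjusted p = 0.0259). Crebrf, a stress-linked regulator of metabolism, stood at 2.81, 2.53 and 2.73 FPKM in KPC libraries, against 4.64, 5.54 and 5.43 FPKM in control libraries, and fell (log2 -0.75, adjusted p = 0.0259). Abcd2, a peroxisomal fatty acid transporter, stood at 2.96, 2.63 and 2.35 FPKM in KPC libraries, against 4.72, 4.48 and 4.75 FPKM in control libraries, and fell (log2 -0.63, adjusted p = 0.0329). Heg1, a membrane protein of blood vessel junctions, had closely grouped values, at 2.40, 2.42 and 2.44 FPKM in KPC libraries, against 4.68, 4.64 and 4.87 FPKM in control libraries, and fell, with differences of -0.74 in replicate 1 and -0.75 in replicates 2 and 3 (adjusted p = 0.0230). Ptgfr, the prostaglandin F receptor (log2 -0.61, adjusted p = 0.0260), Tcp11l2 (log2 -0.91, adjusted p = 0.0251) and the unnamed gene Gm2115 (log2 -0.72, adjusted p = 0.0259) fell as well.

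Genes that passed with the block only, with the largest differences of 1 sign in all replicates, were in part from the same families. Outside them, Ass1 (argininosuccinate synthase) was at 5.46, 10.5 and 13.6 FPKM in KPC libraries, against 3.02, 4.38 and 3.45 FPKM in control libraries (adjusted p = 0.0292 with the block, 0.380 without). Acsbg1, an acyl-CoA synthetase (log2 1.00, adjusted p = 0.0292 with the block), and Myo7a, an unconventional myosin (log2 1.00, adjusted p = 0.0421) were higher, as was Ccl17. Ncoa4, the receptor for ferritin breakdown, was at 1.55, 2.84 and 2.52 FPKM in KPC libraries, against 3.64, 9.07 and 8.40 FPKM in control libraries (adjusted p = 0.0210 with the block, 0.231 without). Slpi, a leukocyte protease inhibitor, was at 12.1, 26.4 and 25.0 FPKM in KPC libraries, against 25.8, 45.7 and 42.0 FPKM in control libraries, where replicate 1 was lowest in both groups (adjusted p = 0.00865 with the block, 0.762 without). Agt, angiotensinogen (log2 -0.92, adjusted p = 0.00967), Ly6c1 (log2 -1.10, adjusted p = 0.0356), U90926 (log2 -0.94, adjusted p = 0.0374), Vwa5a (log2 -0.85, adjusted p = 0.0307), Sbsn (log2 -0.81, adjusted p = 0.0491) and the embryonic globin Hbb-bh1 (log2 -0.86, adjusted p = 0.0438) were lower with the block, and none of these 6 passed without it.

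A test of the difference itself asked which genes responded otherwise in replicate 1 than in replicates 2 and 3, on the assumption that the lone replicate 1 libraries vary like the rest. In simulated data it found 9.2% of changes of log2 1 in the KPC library of replicate 1. A gene that did not pass is therefore not shown to respond alike. Of 10368 genes 37 passed (0.357%), 9 with a higher and 28 with a lower response in replicate 1. None of the 34 genes called over all replicates was among them. In the fit that called the 34, a large gap between replicate 1 and the others widens the spread. A gene could thus hardly be on both lists, and the lack of overlap does not show that the 34 responded alike in replicate 1. Of the 28, 27 had their lowest value of the 6 libraries in the KPC library of replicate 1, against 46.3% of all genes. The 28 were chosen on these same values, so this describes the selected genes and is no separate result. Nrn1, the membrane-anchored protein neuritin, stood at 14.5, 61.3 and 55.2 FPKM in KPC libraries, against 83.8, 86.9 and 89.1 FPKM in control libraries, a difference of -2.45 in replicate 1 and -0.59 in the others (adjusted p of the difference between them = 0.0236). Arf1, a GTPase of vesicle traffic, stood at 67.3, 219.7 and 221 FPKM in KPC libraries, against 142, 194 and 185 FPKM in control libraries. Nme2, a nucleoside diphosphate kinase that shares exons with Gm20390 (below), was at 91.0, 317 and 321 FPKM in KPC libraries, against 204, 299 and 283 FPKM in control libraries. In both the replicate 1 libraries were lowest in their group, and the KPC one most so (adjusted p = 0.0236 for each). Rps6ka4, a kinase, and CAAA01147332.1 followed the same course (differences of -1.21 and -1.54 in replicate 1, against 0.49 and 0.39).

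Several of these genes share exons with a neighbour on the same strand. Of the 37 genes 11 (29.7%) did so in the GENCODE M21 annotation, microRNA and small nucleolar RNA genes left aside, against 7.92% of all tested genes and 1 of the 34 genes called over all replicates. The extreme case was Gm45717, at 0.928, 259 and 250.1 FPKM in KPC libraries, against 208, 1.62 and 0.562 FPKM in control libraries. It was near 0 in 3 libraries and above 200 in 3, and the pattern was turned round between replicate 1 and the others (differences of -6.76 and 6.98, adjusted p = 2.97e-05). Its exons overlap those of Ifitm2, an antiviral membrane protein, which stood at 293, 178 and 159 FPKM in KPC libraries, against 222, 394 and 406 FPKM in control libraries. Across the 6 libraries Ifitm2 was higher in the 3 where Gm45717 was near 0 than in the 3 where it was high. Fastkd5, a mitochondrial RNA processing protein that overlaps Ubox5, was at 9.31, 9.26 and 9.32 FPKM in KPC libraries, against 1.26, 9.23 and 8.17 FPKM in control libraries, where the control library of replicate 1 lay below the 5 others. Gm20708, which overlaps Afmid and Syngr2, was at 2.86, 3.16 and 2.87 FPKM in KPC libraries, against 0, 2.65 and 2.75 FPKM in control libraries. Ovca2, which overlaps Dph1, was at 0, 2.83 and 2.99 FPKM in KPC libraries, against 2.84, 2.95 and 3.08 FPKM in control libraries. Both genes are listed at 0 in 1 library. Ccdc115, which overlaps Gm28306, was at 16.5, 7.35 and 5.52 FPKM in KPC libraries, against 4.10, 8.50 and 11.1 FPKM in control libraries. Gm20390, which shares exons with Nme2, was at 97.8, 25.8 and 6.71 FPKM in KPC libraries, against 17.2, 9.30 and 6.44 FPKM in control libraries. It was highest in the KPC library of replicate 1, where Nme2 was lowest. How the reads of shared exons were assigned was not tested.

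Not all of the 37 genes overlap a neighbour. Nek7, a kinase of the inflammasome, stood at 5.12, 19.7 and 20.6 FPKM in KPC libraries, against 27.1, 6.19 and 5.86 FPKM in control libraries, high in the control library of replicate 1 and in the KPC libraries of replicates 2 and 3 (adjusted p = 0.000216). Zfp263, a zinc finger protein, stood at 6.97, 2.81 and 2.93 FPKM in KPC libraries, against 2.74, 7.20 and 5.71 FPKM in control libraries, with the opposite pattern (adjusted p = 0.0253). Hspa5, the ER chaperone BiP, stood at 247, 117 and 139 FPKM in KPC libraries, against 101, 138 and 124 FPKM in control libraries, with the KPC library of replicate 1 above the 5 others (adjusted p = 0.0441). Rsu1, a Ras suppressor at cell adhesions, and Krr1, a ribosome assembly factor, were also higher with KPC exosomes in replicate 1 only, by 0.59 and 0.87, against -0.66 and -0.081 in replicates 2 and 3 (adjusted p = 0.0441 for each).

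**Figure D5:**
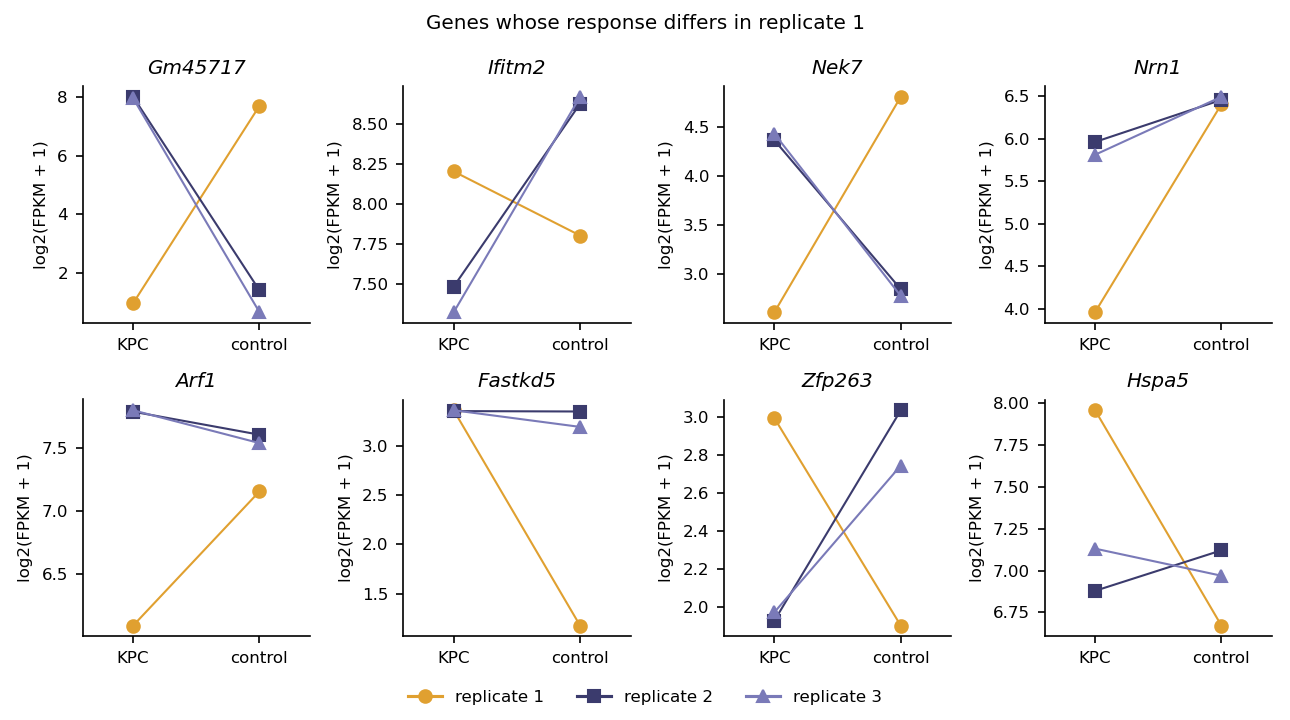
Values on the log2(FPKM + 1) scale (y axis) of 8 genes whose response differed in replicate 1, with a line joining the KPC library (left) to the control library (right) of the same replicate number. The line of replicate 1 runs against those of replicates 2 and 3 in Gm45717, Ifitm2, Nek7, Arf1 and Zfp263.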

How the data were processed

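Total RNA of the stellate cells was extracted with Trizol and made into TruSeq libraries, per the labels' protocols. Cutadapt, HISAT2 2.0.4, StringTie 1.2.3 and the mouse build GRCm38 are named in the submitters' processing notes. The annotation and strand setting were not given in the sources used here. Values are FPKM per gene and library as deposited by the authors, without whole-read steps, so depth is unknown.

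Genes that reached 1 FPKM in 3 or more of 9 libraries were fitted on the log2(FPKM + 1) scale with limma 3.58.1 (R 4.3.3, mean-variance trend) over all 9 libraries, with Benjamini-Hochberg adjustment at 0.05. Further fits added the replicate number as a block, or separate group means for replicate 1. The numbers were taken to pair libraries because deviations from the group means of same-numbered libraries correlated at 0.24 to 0.81, above 0.1 in every pair. Number 2 of 1 group and number 3 of another correlated as much, at 0.30 to 0.61. Number 1 and the other numbers correlated at -0.71 to -0.38. These correlations thus set replicate 1 apart from the rest and do not show that numbers 2 and 3 each pair libraries. The labels do not say what a number stands for. GC content was that of the longest protein-coding transcript in GENCODE M21, and a lowess curve on it (span 0.3) was subtracted in each library. The fits were tested on simulated data, with known changes put into 200 genes a run on the gene means and residual spread of these libraries.

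Members and lists were chosen with earlier results of these data known. Named genes were those that passed without a block, up to 6 called members of each of 49 families or otherwise the 2 of lowest p, the 12 of largest difference in each direction that passed with the block only, the 8 of lowest p in each direction with another response in replicate 1, and a short list of fibrosis genes. Some genes that the rule names are not reported here. Python 3.11.15, numpy 2.4.6, scipy 1.17.1 and matplotlib 3.10.9 were used.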

Additional observations from a re-analysis of the deposited data

Results flagged for a closer look

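In 16 genes the response to KPC exosomes in replicate 1 differed from that in replicates 2 and 3 by a test of the difference itself. The values are the KPC minus control difference in replicate 1 less that in replicates 2 and 3, on the log2(FPKM + 1) scale. It was positive in Ccdc115 (2.32), Fastkd5 (2.11), Zfp263 (2.03), Gm20708 (1.83), Ifitm2 (1.64), Hspa5 (1.32), Rsu1 (1.24) and Krr1 (0.95), of which Fastkd5, Gm20708, Ifitm2 and Ccdc115 share exons with another gene on the same strand. It was negative in Gm45717 (-13.74), Nek7 (-3.79), CAAA01147332.1 (-1.93), Ovca2 (-1.90), Nrn1 (-1.86), Rps6ka4 (-1.70), Nme2 (-1.29) and Arf1 (-1.28), of which Gm45717, Ovca2, Rps6ka4 and Nme2 share such exons.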

How the results depend on the processing

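The counts of 13 higher and 21 lower genes depended on the libraries and the scaling. They were 2 and 4 with equal library totals, 61 and 113 with the replicate block, 100 and 78 with replicates 2 and 3 only, 48 and 49 with GC-adjusted values, 134 and 191 with the block and GC-adjusted values, and 0 and 0 with the control and KPC libraries alone in limma with or without the block. Of the last, the unadjusted p was under 0.05 in 191 and 392 genes without the block and 389 and 652 with it. Leaving out 1 library gave 0 to 14 higher and 0 to 20 lower genes. Pseudocounts of 0.1 and 0.5, other filters, equal totals without mitochondrially encoded genes, no trend and a robust prior gave counts within 1.5 times. A like count did not always mean the same genes. With equal totals without mitochondrially encoded genes 16 lower genes passed, and 12 of them were among the 21. The replicate block changed no direction, and 57 of 149 named genes passed with it and not without. In replicates 2 and 3 the counts were 30 and 28 with the control and KPC libraries alone. Genes with another response in replicate 1 were 14 higher and 56 lower with a pseudocount of 0.1, 50 lower with equal totals, 17 lower with GC-adjusted values, and 1 and 4 with the control and KPC libraries alone. The mitochondrially encoded share turned to a difference of -3.04 percentage points in replicates 2 and 3. There the log2 difference turned sign in Arf1 (0.22), CAAA01147332.1 (0.39), Ccdc115 (-0.54), Hspa5 (-0.040), Krr1 (-0.081), Mki67 (-0.12), Nme2 (0.13) and Rps6ka4 (0.49). With 1 library left out it turned sign in Arf1 (-0.49 to 0.36), CAAA01147332.1 (-0.84 to 0.78), Ccdc115 (-0.18 to 0.53), Krr1 (-0.017 to 0.37), Mki67 (-0.19 to 0.29), Nek7 (-0.024 to 0.99), Nme2 (-0.60 to 0.30), Pdgfrb (-0.25 to 0.26), Rps6ka4 (-0.39 to 0.54), Tgfb1 (-0.13 to 0.43) and mt-Co1 (-0.55 to 0.094), given as ranges. None of these genes had passed over all replicates, with or without the block. Several had passed the test of another response in replicate 1, and Nek7 also passed in replicates 2 and 3. Family medians moved beyond the spread of the replicates in 29 of 49 families with replicate 1 only and in 25 without KPC replicate 1. The cause of these changes was not tested. Without read counts, FPKM give no limit of detection.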
